A study of Paralichthys olivaceus with 6 samples.

Results

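The gene cirbp encodes the cold-inducible RNA-binding protein, and its reads were followed here through 6 RNA-seq libraries of olive flounder (Paralichthys olivaceus) hindbrain. It is 1 row of the 24395 in each count table, taken by its identifier, and it had reads in 6 of 6 libraries. It was chosen by measured values of these same libraries: its high rank, its CPM (counts scaled to a common library total) in each library, its small spread and its values by title group. The series compared flounder selected as bold with flounder selected as shy, with 3 libraries titled bold and 3 titled shy. All fish, with a body mass of 101.06 ± 6.39 g (SD), were held at 18 °C with 12 h of light and 12 h of darkness and ate pelleted feed. The labels name no treatment, genotype or temperature that differed between the groups, and the age, sex and hour of sampling of the fish were not used here. Title and source name give 1 personality for each library and the personality characteristic gives the other word, so libraries are named by title, and each direction below turns around if the characteristic is right. The labels speak of hindbrain RNA from 6 individuals and do not say whether that is 6 in all, 1 for each library, or 6 pooled for each. Nothing else in them states that the libraries of a group came from separate fish, and the spread between libraries is then only that of these samples.

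CIRBP carries an RNA recognition motif and a tail rich in arginine and glycine. In mammals its transcript rises under mild cold and falls under heat, and the protein moves between nucleus and cytoplasm, enters stress granules and binds other transcripts, among them those of circadian clock genes. In fish, cirbp is among the transcripts that cold exposure raises in brain and other tissues, and mammalian CIRBP released from cells acts as an inflammatory signal. The closest mammalian relative is RBM3, also a cold-induced protein. The present libraries hold no temperature contrast, and they describe the gene at a constant holding temperature.

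By name, the identifier cirbp stands alone in the files. No row carried the names cirbpa, cirbpb or rbm3. A search by name does not cover the 9064 of 14730 LOC numbers left without a symbol, so a further copy may be counted there. The RefSeq annotation of assembly ASM2471397v2 names a flounder gene cirbpa, whose gene number is not among the LOC numbers of the files, and the files do not pair it with the row cirbp. Reads of any further copy that the counting merged into this row cannot be separated. The labels do not say which genome build the counts rest on, so no position is given.

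The gene was among the most heavily read of the hindbrain. In libraries titled bold it had 64661, 48078 and 62016 reads, and in libraries titled shy 72795, 68825 and 66811 reads. Those are 0.319%, 0.266% and 0.304% of all counts in the first group and 0.333%, 0.302% and 0.316% in the second. Titled bold 2 was the lowest library on both scales, and it also had the fewest reads in total. Library totals lay between 18081694 and 22805563 counts, so the counting error on cirbp was only 0.371% to 0.456% of its value per library.

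Scaled to a common total with TMM factors, a scaling that sets most genes equal between libraries, cirbp stood at 3088, 2791 and 3089.9 CPM in titled bold 1, 2 and 3. It stood at 3206, 3039.6 and 3159.9 CPM in titled shy 1, 2 and 3. Over all 6 libraries this is 3062 ± 145 CPM (SD), and the highest library exceeded the lowest 1.15-fold, against 1.51-fold for the raw counts. Titled bold 2 lay apart from the rest: it deviated from the mean of 6 by -8.86%, and the other 5 libraries by between -0.743% and 4.68%.

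**Figure D1:**
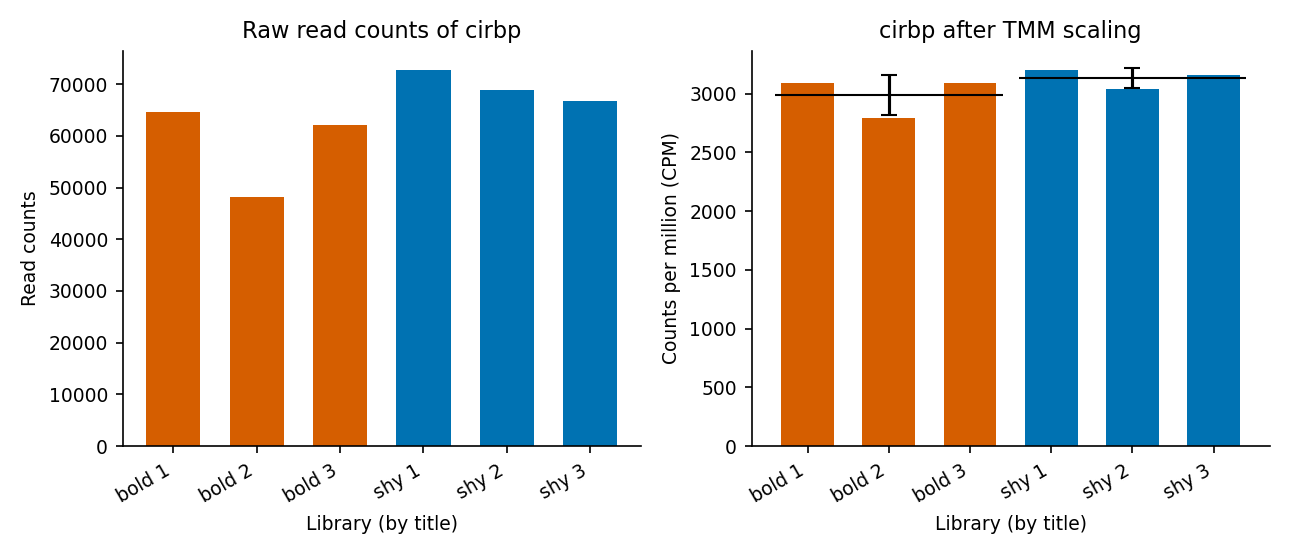
Read counts of cirbp (left) and TMM-scaled CPM (right) in the 6 libraries, coloured by the group in the title (orange bold, blue shy); on the right, lines are group means and error bars SDs over 3 libraries. The raw counts range from 48078 to 72795 and the scaled values from 2791 to 3206 CPM, with titled bold 2 lowest in both panels.

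Ordered by mean CPM, cirbp was number 8 of 24395 genes, and within single libraries its place was between 6 and 12. Its mean was 191 times the median mean of the 19755 genes that passed the expression filter, 16.0 CPM. These places are of read counts, which grow with transcript length, and lengths were not used here, so they do not order molecules per cell. Just above cirbp stood actb2, a cytoplasmic actin gene, at 4033 ± 418 CPM, followed by the unnamed loci LOC109633073 at 3293 ± 669 CPM and LOC109638083 at 3288 ± 590 CPM. Just below stood LOC109627565 at 2899 ± 306 CPM, the apolipoprotein gene apoa2 at 2759 ± 322 CPM and LOC109627034 at 2623 ± 358 CPM. The lowest library of actb2, at 3579 CPM, was above the highest of cirbp, whereas the ranges of the other 5 neighbours overlapped that of cirbp. The order of cirbp among those 5 is therefore not fixed beyond the spread of the libraries.

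Beside its level, cirbp was chosen for how little it varied. Its coefficient of variation (CV, the SD as a percentage of the mean) over the 6 libraries was 4.75%. The 107 genes nearest in mean CPM, 7 above it and 100 below, down to 872 CPM, had a median CV of 11.6%, with quartiles of 8.54% and 15.2%. Of these 107 genes 3 had a lower CV than cirbp, a share of 2.80%. They were LOC109640561 at 2.82%, LOC109642576 at 3.85% and a further unnamed locus. The next named genes were tmem269 at 4.86%, which encodes a transmembrane protein, and the translation initiation helicase gene eif4a1a at 5.67%. Among all 11968 other tested genes with a mean of at least 10 CPM, 466 or 3.89% had a lower CV. The level and the spread of cirbp were among the values it was chosen for, so these figures are descriptions with no test.

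**Figure D2:**
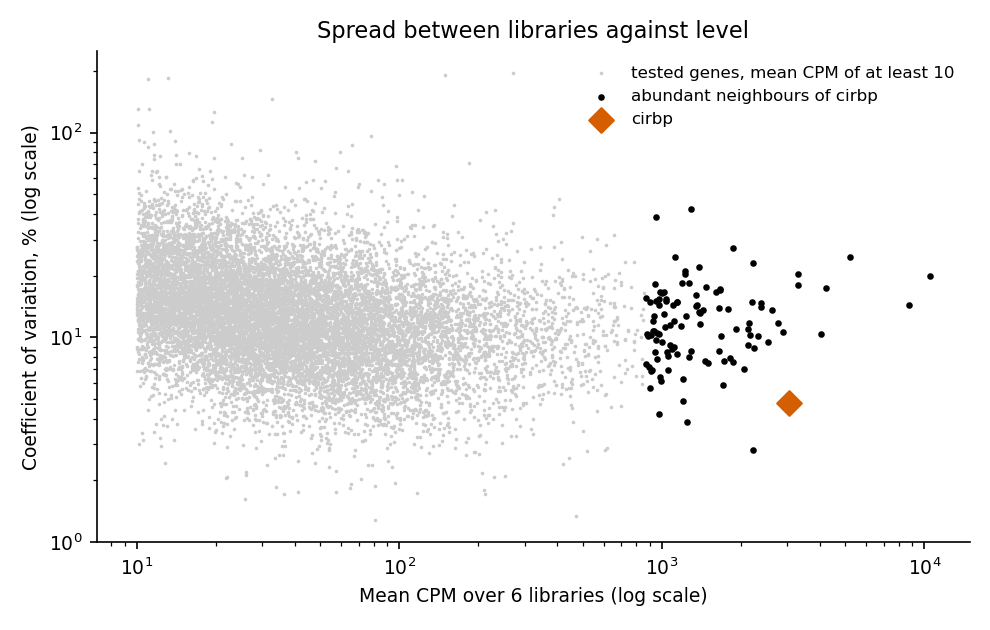
Coefficient of variation over the 6 libraries against mean CPM, both on log scales, for tested genes with a mean of at least 10 CPM (grey), the 107 genes nearest to cirbp in level (black) and cirbp (orange diamond). cirbp lies at 3062 CPM and 4.75%, below the median of 11.6% of its neighbours in level.

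The spread of cirbp depended on the scaling and on a few libraries. With library totals in place of TMM factors its CV was 7.49% and the median of the 107 neighbours 10.3%, and 28.0% of them had a lower CV. Without titled bold 2 the CV of cirbp over the remaining 5 libraries was 2.11%, and 0% of its neighbours were lower, and without titled shy 1 9.35% were lower. Within groups the difference was similar, with a pooled CV of 4.44% for cirbp and a median of 11.4% for its neighbours. Without titled bold 1, without titled shy 2 and with upper-quartile scaling the share was 5.61%, 4.72% and 5.61%.

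The small movements of cirbp mostly ran against those of other abundant genes. In titled bold 2, where cirbp lay 0.13 below its own mean on the log2 scale (-0.13), the 107 neighbours had a median deviation of 0.15, and 55 of them had their highest value there. In titled shy 1, where cirbp was highest at 0.07, the neighbours had a median deviation of -0.13, and in titled bold 1 the values were 0.01 and -0.11. In titled bold 3, titled shy 2 and titled shy 3 cirbp lay within the quartiles of its neighbours. Pearson's r between the log2 CPM of cirbp and that of each neighbour over the 6 libraries was below 0 for 94 of 107 genes, with a median of -0.57. Over the 11968 genes of at least 10 CPM it was below 0 for 58.1%, with a median of -0.18. These coefficients rest on the same 6 libraries and share their depth and scaling, and they are given without a p-value.

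**Figure D3:**
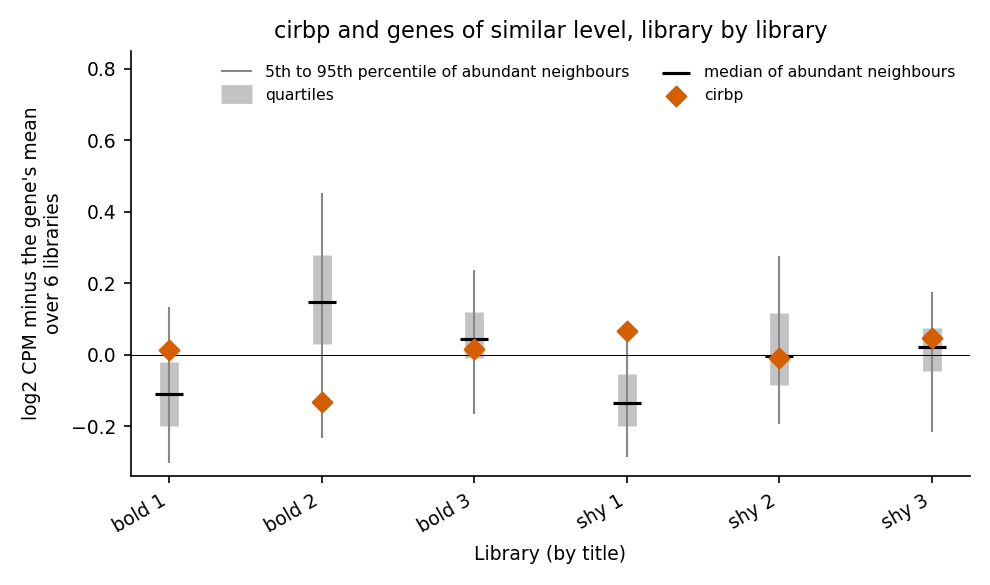
Deviation of log2 CPM from each gene's own mean over 6 libraries, for cirbp (orange diamonds) and the 107 genes nearest in level (black bar, median; thick grey bar, quartiles; thin grey line, 5th to 95th percentile). cirbp is at -0.13 in titled bold 2 and 0.07 in titled shy 1, where the medians of the others are 0.15 and -0.13.

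Titled bold 2 also stood apart from the other libraries in its neuronal and oligodendrocyte markers, and in the cerebellar granule cell markers given further below. Summed over 6 rows, the neuronal list reached 8781 CPM there and between 6028 and 6538 CPM in the other 5 libraries. By group the sums ran from 6122 to 8781 CPM under the bold title and from 6028 to 6348 CPM under the shy title. The synaptic gene snap25 had 5697 CPM in titled bold 2 and 4173 CPM in titled bold 3, while the neuronal gene elavl3 was lowest in titled bold 2 and syt1 was not highest there. Oligodendrocyte markers, 5 rows, summed to 3655 CPM in titled bold 2 and to between 1735 and 2164 CPM elsewhere, with shy libraries between 1772 and 2164 CPM. The myelin genes mbpa and plp1b carried most of that sum, while mpz was lowest in titled bold 2. Astroglial markers, 6 rows, summed to 3103 CPM in titled bold 2 and to between 3143 and 3733 CPM elsewhere. That low sum rested on 1 member, the glutamate transporter gene slc1a2, with 99.9 CPM in titled bold 2 and 335 to 592 CPM elsewhere. The glutamine synthetase genes glula and glulb, gfap and fabp7a were not lowest in titled bold 2. Every row of the neuronal, oligodendrocyte and astroglial lists had a read in at least 1 library. The part of tissue composition or dissection in the low cirbp value was not tested. In bulk tissue, fewer cells of a type and less RNA per cell cannot be told apart.

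Over all genes, the first principal component held 43.5% of the variance between libraries and placed titled bold 2 at 72.3, with the other libraries between -34.3 and 13.3. The coefficient of cirbp with it was -0.90 over the 6 libraries, and with the TMM factor of each library 0.82; the part of either in its pattern was not tested. The hindbrain label was met unevenly: Hox genes had 10 to 29 reads per library over 41 rows, 25 of them without a read, while 6 rows of other hindbrain markers summed to between 95.4 and 115 CPM. Forebrain and midbrain markers, 8 rows, summed to between 106 and 127 CPM. Cerebellar granule cell markers, 6 rows, summed to 564 CPM in titled bold 2 and to between 449 and 493 CPM elsewhere. The gene gabra6b carried most of that sum, with a mean of 381 CPM over the 6 libraries and 431 CPM in titled bold 2. In that library zic1 and gabra6a were not highest.

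Between the title groups the means of cirbp differed by less than the SD of the libraries titled bold. It had 2990 ± 172 CPM (2989.6, SD, n = 3) under the bold title and 3135 ± 85.8 CPM (n = 3) in libraries titled shy, so that the bold mean differed from the shy mean by -4.64%. The groups overlapped: 2 shy libraries were above all bold ones, and titled shy 2 lay below titled bold 1 and titled bold 3. The log2 difference, bold minus shy, was -0.07 ± 0.10 (SE) in the edgeR fit, and -0.02 ± 0.10 without titled bold 2. The median size of the log2 difference over all 19755 tested genes was 0.15, and 24.9% of genes had a smaller one than cirbp. The median SE of all tested genes was 0.20, against 0.10 for cirbp, so this share is not matched for precision. Since the title groups were in view when the gene was chosen, no p-value is given for it.

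Across all genes, edgeR's quasi-likelihood test called 0 of 19755 at a Benjamini-Hochberg adjusted p under 0.05, a share of 0%. At an unadjusted p under 0.05 it had 690 genes, 3.49%, and the title groups did not overlap in 1882 genes, 9.53%. DESeq2 called 11 genes, 0.0557%, and limma-voom 0. The genes around cirbp are given against these shares, relative to a median log2 difference of -0.01 over all tested genes.

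A list of 7 symbols of the cirbp family and related names matched 2 rows besides cirbp, and 4 symbols matched no row. The rows were rbmx, which encodes the splicing regulator hnRNP G, and rbmx2, which encodes a spliceosome component. They were matched by name only, and their kinship to cirbp was not tested. The values of rbmx were 54.9, 66.5 and 73.0 CPM under the bold title and 60.9, 65.6 and 64.9 CPM under the shy title. Those of rbmx2 were 36.1, 43.8 and 39.6 CPM, and 38.7, 46.0 and 46.4 CPM. Both had their lowest value in titled bold 1, where cirbp was near its mean. Their groups overlapped, with log2 differences of 0.02 ± 0.12 for rbmx and -0.14 ± 0.13 for rbmx2, and their CVs of 9.37% and 10.2% exceeded that of cirbp.

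Proteins that modify, move or accompany CIRBP in mammals were represented by 18 tested rows, of which 0 were called in either direction. Their median log2 difference was -0.02, with 8 above 0 and 10 below. The most read was ybx1, a cold-shock-domain protein that packages transcripts, at 515 ± 32.6 CPM under the bold title and 577 ± 68.7 CPM under the shy title (edgeR adjusted p = 0.955). The splicing kinase gene srpk1b followed with 331 ± 22.3 and 332 ± 31 CPM. The translation initiation gene eif4g2b had 161 ± 9.73 and 147 ± 5.89 CPM, a log2 difference of 0.13 ± 0.09. Of these 18 genes, 3 varied less than cirbp, or 10 with library totals in place of TMM factors. The arginine methyltransferase gene prmt5, at 34.8 CPM with a CV of 2.65%, varied least; it was named after its values were seen. The sp1 gene, whose product activates Cirbp transcription in mouse cells in the cold, was read at 13.3, 10.6 and 13.3 CPM under the bold title and at 14.4, 14.4 and 13.9 CPM under the shy title. It was lowest in titled bold 2, as were 29.3% of all tested genes. Its groups did not overlap, the only such row of the 18, or 5.56%, against 9.53% of all genes.

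Transcripts reported as bound by CIRBP in mammals gave 16 tested rows, with 0 called, 8 above 0 and 8 below, and a median log2 difference of 0.02. The neurotrophin gene bdnf had the largest group contrast of the list by p, at 33.3, 49.4 and 39.6 CPM against 25.1, 28.7 and 27.0 CPM. Its groups did not overlap, the log2 difference was 0.60 ± 0.16, and the edgeR adjusted p was 0.955. The thioredoxin gene txn, whose transcript CIRBP stabilises in human cells, had 108 ± 6.08 and 97.4 ± 5.38 CPM, a log2 difference of 0.15 ± 0.10. The most read of the list were the clock repressor genes per3, at 144 ± 47.9 and 122 ± 33.1 CPM, and cry1a, at 122 ± 4.01 and 113 ± 4.66 CPM. In this list the groups did not overlap in 3 rows, bdnf, txn and the cyclin gene ccne1, a share of 18.8% of 16 rows, where all genes gave 9.53%.

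The list for extracellular CIRBP and its inflammatory response held 8 rows, and no row was matched for 4 of its 11 symbols, among them the CIRBP receptor genes tlr4 and trem1, which were not analysed here. The most read members were hmgb1a and hmgb1b, which encode a chromatin protein that acts as a danger signal outside cells, at 1785 ± 245 and 567 ± 31.4 CPM over 6 libraries. The adaptor gene myd88 had 4.37 ± 0.370 and 5.61 ± 0.472 CPM, and the transcription factor gene nfkb1 3.11 ± 0.803 and 4.71 ± 1.76 CPM, with log2 differences of -0.36 ± 0.23 and -0.60 ± 0.36. The cytokine gene tnfa had 40 reads over all libraries and was not tested. Of 7 tested rows 0 were called.

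Genes that rise in the cold in fish or mammals, cirbp aside, gave 37 tested rows. Of these 0 were called, 23 lay above 0 and 14 below, and the median log2 difference was 0.04. The calponin gene cnn1 had 1.25 ± 0.386 and 2.24 ± 0.878 CPM, and the chromatin gene nucks1 had 104, 107 and 102 CPM under the bold title and 130.0, 110.5 and 125 CPM under the shy title. For nucks1 the groups did not overlap and the log2 difference was -0.22 ± 0.10 (edgeR adjusted p = 0.955). The groups did not overlap in 4 rows of this list, 10.8%, against 9.53% of all genes. Of these, nop58 was also lower under the bold title, while ddx5 (0.15) and srsf5a (0.12) were higher. The last 3 were named after their values were seen. The most read were hmgb1a and rtn4, an endoplasmic reticulum shaping gene, at 1280 ± 153 and 1266 ± 46.5 CPM. Over the 6 libraries 26 of the 36 rows with at least 10 CPM had a coefficient below 0 with cirbp, against 58.1% of all genes. The median was -0.51, against -0.18 for all genes and -0.57 for the 107 abundant neighbours of cirbp. Of the 37 rows 23 had a mean of at least 100 CPM. Among the 26 were both copies of the stearoyl-CoA desaturase gene, scd at -0.72 and scdb at -0.70. That enzyme makes membrane lipids more fluid in cold fish. The other 10 rows lay above 0, among them ddx21 at 0.74 and cct2 at 0.67. The scd copies, ddx21 and cct2 were named after their values were seen.

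Heat shock genes, which in mammals move opposite to cirbp with temperature, gave 24 tested rows with 0 called, 12 above 0 and 12 below, and a median log2 difference of 0.00 (0.0027). The chaperone gene hsp90ab1 had 1832 ± 173 and 1887 ± 131 CPM, and the endoplasmic reticulum chaperone gene hsp90b1 227 ± 4.31 and 231 ± 5.03 CPM. The cochaperone gene ahsa1 had 60.6 ± 8.43 and 51.2 ± 0.488 CPM, with a log2 difference of 0.24 ± 0.12. The heat shock factor gene hsf2 had 34.4, 31.9 and 34.6 CPM under the bold title and 85.6, 35.6 and 39.7 CPM under the shy title. Its groups did not overlap, but titled shy 1 stood far above every other library, and the log2 difference was -0.67 ± 0.30 with it and -0.15 without it. The groups did not overlap in 3 rows of this list, 12.5%, against 9.53% of all genes. The others, hspa1b and hspb1, were higher under the bold title and were named after their values were seen. The coefficients of the 22 rows of at least 10 CPM with cirbp were above 0 in 9 and below 0 in 13, where 58.1% of all genes were below 0.

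Of 33 tested clock gene rows 0 were called, 12 lay above 0 and 21 below, and the median log2 difference was -0.08. The repressor gene nr1d2, which encodes REV-ERB beta, had 70.9, 71.9 and 77.9 CPM under the bold title and 57.1, 60.6 and 54.2 CPM under the shy title, a log2 difference of 0.36 ± 0.10 (edgeR adjusted p = 0.955). The nuclear receptor gene rorcb had 45.6, 33.7 and 45.8 CPM against 58.1, 48.1 and 53.2 CPM, a log2 difference of -0.35 ± 0.15 (edgeR adjusted p = 0.955). These 2 rows were those in which the groups did not overlap, 6.06% of the list. Another nr1d2 row of the list, nr1d2a, had 30.3 ± 4.47 CPM over the 6 libraries, and its groups overlapped. Its log2 difference was opposite in sign to that of nr1d2, at -0.13 ± 0.16. The row nr1d2a was picked with its values already known. The most read clock genes were the PAR bZIP factor genes hlf, at 417 ± 105 and 368 ± 29.5 CPM, and dbpb, at 172 ± 24.2 and 164 ± 12.8 CPM. With cirbp, 15 of the 24 rows of at least 10 CPM had a coefficient above 0 and 9 below, with a median of 0.40. Of all genes at that level 58.1% were below 0, with a median of -0.18, and the difference was not tested. The coefficient of rorcb was 0.97 and that of hlf -0.83.

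Within a list of genes for proteins with RNA recognition motifs, cirbp took the most reads. No row was matched for 16 of the 92 listed symbols, and rows without a symbol were not covered. Rows were matched by name only, and the motif itself was not checked, so the list can hold proteins without it. The cirbp row had 2791 to 3206 CPM, while the other 91 rows of the list together had between 11341 and 12350 CPM (12349.6) per library. The share of cirbp in that sum with itself was 21.4%, 18.9% and 20.2% under the bold title and 21.5%, 20.3% and 20.4% in libraries titled shy. The next were the poly(A)-binding protein genes pabpc1b, at 959 ± 100.1 CPM, and pabpc1a, at 646 ± 69.9 CPM. This is an order of reads and not of molecules, as transcript lengths were not used. Of 90 tested rows 11 had a lower CV than cirbp, among them the TDP-43 gene tardbp at 1.78% and the nucleolin gene ncl at 2.81%; with library totals in place of TMM factors 31 had a lower CV. Another TDP-43 row of the list, tardbpb, varied more, at 263 ± 19.0 CPM. Its highest library exceeded its lowest 1.24-fold, against 1.15-fold for cirbp. These genes were named after their values were seen.

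In the title groups 0 of these 90 rows were called, 44 lay above 0 and 46 below, with a median log2 difference of 0.00 (-0.0038). At an unadjusted p under 0.05 there were 4, or 4.44%, all lower in libraries titled bold, where all genes gave 3.49%. The FET-family gene fus had 27.6, 18.1 and 25.9 CPM under the bold title and 39.9, 37.0 and 41.7 CPM under the shy title, a log2 difference of -0.73 ± 0.17 (edgeR adjusted p = 0.955). The splice-site factor gene u2af2 had 99.9, 64.3 and 88.1 CPM against 117, 109.7 and 125 CPM, a log2 difference of -0.48 ± 0.16 (edgeR adjusted p = 0.955). The other 2, named after their values were seen, were taf15, also of the FET family, at -0.29, and the initiation factor gene eif4b, at -0.23. The FET-family gene ewsr1, also named after its values were seen, had 188 ± 11.2 and 198 ± 2.76 CPM. Its groups overlapped, with a log2 difference of -0.07 ± 0.09. The groups did not overlap in 13 rows, 14.4%, against 9.53% of all genes.

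**Figure D4:**
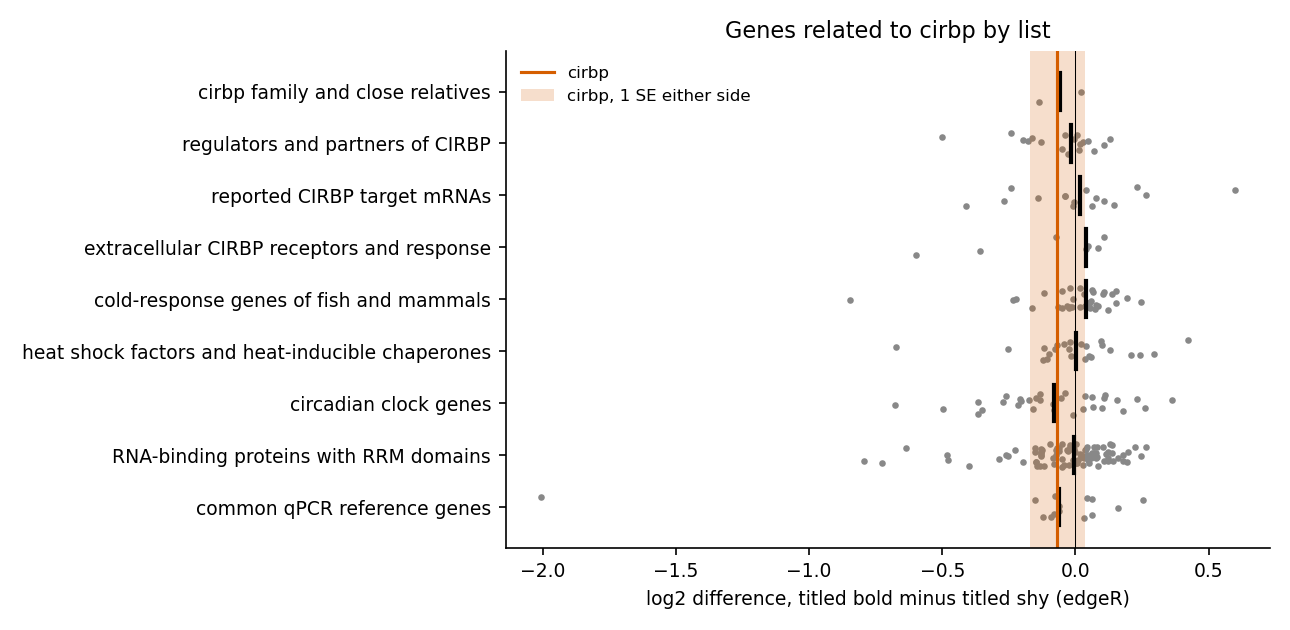
log2 difference between libraries titled bold and titled shy from the edgeR fit for each tested gene (grey points) of 9 lists related to cirbp, with list medians (black bars) and cirbp itself (orange line, band of 1 SE either side, -0.07 ± 0.10). All medians lie between -0.08 and 0.04, 0 of the genes shown were called by edgeR, and the point at -2.01 is the reference gene row gapdh.

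The genes whose pattern over the 6 libraries was most like that of cirbp were ranked by Pearson's r of log2 CPM among 11968 genes with a mean of at least 10 CPM. Loci without a symbol were ranked too but are passed over here, so the places below are among genes with a symbol. The first of these was smg5, a gene of nonsense-mediated decay, with r of 1.00 (0.9992). It had 62.9, 53.2 and 63.2 CPM under the bold title and 67.2, 60.9 and 65.6 CPM under the shy title. It kept the order of cirbp in all 6 libraries, with titled bold 2 lowest and titled shy 1 highest. Next came the potassium channel gene kcnd3 with r of 0.998, the mitochondrial quality-control kinase gene pink1 with 0.996, the mitochondrial protease gene lonp1 with 0.995 and stxbp5l, a regulator of vesicle fusion, with 0.994. All 5 moved over a wider range than cirbp: the highest library exceeded the lowest 1.26-fold for smg5, 1.42-fold for kcnd3 and 2.58-fold for pink1, against 1.15-fold for cirbp.

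Among genes with a symbol, the opposite pattern was closest in hypk, which encodes a ribosome-associated chaperone, with r of -0.996. It had 51.8, 67.6 and 50.8 CPM under the bold title and 46.2, 53.3 and 49.2 CPM under the shy title. Next among them came the junctophilin gene jph3a at -0.994 and the mitochondrial import gene dnajc19 at -0.991. The retinol-binding protein gene rbp5 at -0.990 and the iron-sulfur cluster gene isca1 at -0.987 followed. Each coefficient rests on only 6 points, and 191 genes, 1.60%, had r above 0.95 and 76, 0.635%, below -0.95. The cause of their number was not tested. When 1 library was left out and the genes were ranked again, 10 to 30 of the 50 genes most like cirbp were again among the first 50, with 10 without titled bold 2.

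Of the listed genes with RNA recognition motifs, the neuronal elavl3 was the most like cirbp, with r of 0.987. It had 201, 159.8 and 198 CPM under the bold title and 223, 189 and 206 CPM under the shy title. Its relative elavl1a, whose product HuR binds and stabilises transcripts, had r of 0.961 and a Spearman coefficient of 0.60, at 76.0, 52.5 and 72.1 CPM and 75.2, 69.0 and 75.2 CPM, so that its likeness lay mainly in the low value of titled bold 2. Other relatives on the list were less like cirbp, with r of 0.30 for elavl4 and -0.16 for elavl2. The stress granule gene g3bp2 was at the other end with r of -0.884. These genes were named after their values were seen.

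**Figure D5:**
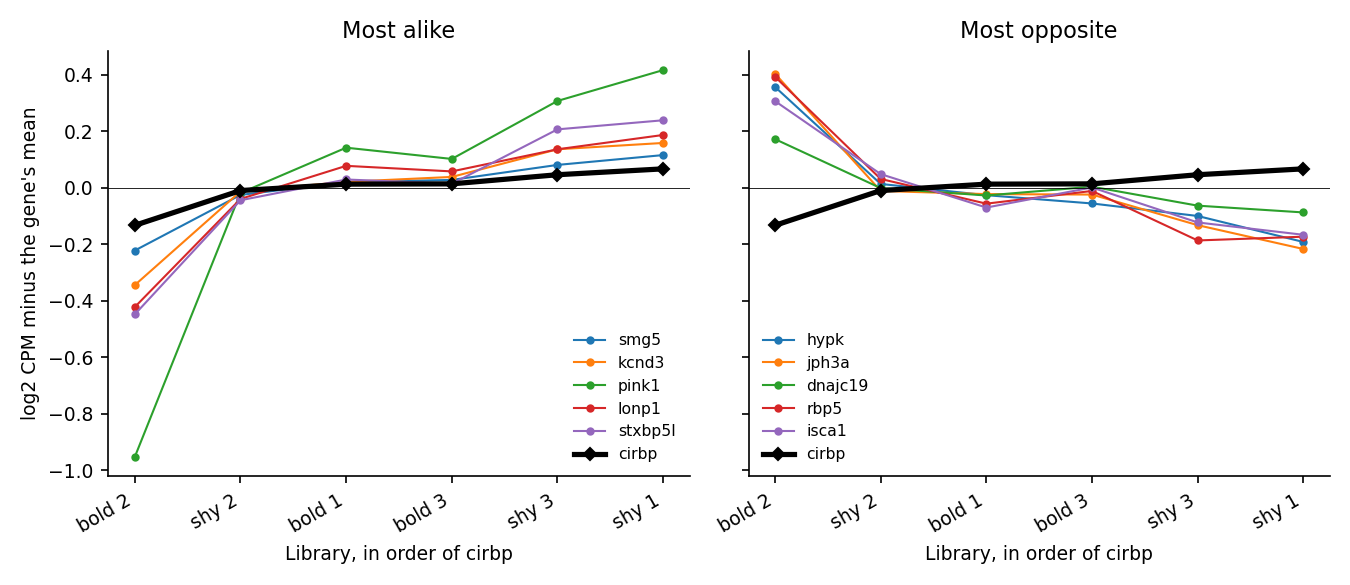
log2 CPM minus each gene's mean, with the 6 libraries placed in the order of cirbp, for the 5 named genes with the highest r to cirbp (left) and the 5 with the lowest (right); cirbp is the thick black line in both. The other genes move further than cirbp, pink1 most, and the largest step is at titled bold 2.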

How the data were processed

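The authors deposited unnormalised gene-level read counts, 1 file a library with 24395 genes. Among the tools in the submitters' processing notes are HTSeq 0.11.1, TopHat2 2.0.11 and Trimmomatic 0.30. Build, annotation, strand setting and counting mode are unknown from the labels, so reads of close paralogs or overlapping genes may be misassigned. Totals were 18081694 to 22805563 counts, and every pair of libraries within a group differed beyond counting noise, with a chi-square of 17.1 or more per gene. Libraries were grouped by title.

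Genes kept by filterByExpr (19755) received TMM factors. The contrast used edgeR's robust quasi-likelihood fit, two-sided, with Benjamini-Hochberg adjustment over all of them. SEs of log2 differences were derived from the same fit. CPM use TMM-scaled totals, and correlations log2 CPM with a prior count of 2. The 200 genes planned as neighbours in level became 107, as only 7 genes lie above cirbp. Names for LOC numbers came from RefSeq (5666 of 14730). The gene, lists and tests were chosen with earlier results of these data known, and the reference gene list after the values were seen. Named genes were the neighbours in level and the 2 most read and 2 with the smallest p of each list. The 5 genes with a symbol that were most and least like cirbp were also named. List genes with a described tie to cirbp, such as sp1, could be given by level. The steps were tested on simulated data. DESeq2 1.42.0 and limma-voom (limma 3.58.1) were alternatives to edgeR 4.0.16, under R 4.3.3. Tables and figures came from Python 3.11.15 and matplotlib 3.10.9.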

Additional observations from a re-analysis of the deposited data

How the results depend on the processing

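The mean and place of cirbp kept within 1 SD in all 9 alternatives tried, with 3034 to 3117 CPM and places 7 to 8 when 1 library was left out. Leaving out 1 of 6 libraries can only move a mean by less than 1 SD, so for the mean those alternatives could not have shown otherwise. The log2 difference of cirbp stayed below 0 in every alternative, from -0.09 to -0.02 without 1 library, -0.10 with library totals and -0.07 with the replicate block. The share of neighbours with a lower CV was 28.0% with library totals and 0% to 9.35% without 1 library. Of the 50 genes most like cirbp, 32 were shared with upper-quartile scaling, 18 with library totals, 17 with Spearman's coefficient, 24 after subtracting group means, 26 with a minimum of 1 CPM and 10 to 30 without 1 library, so most settings exchanged many of these genes; the cause was not tested. DESeq2 called 11 genes, 8 higher and 3 lower, of which 1 was on a list, the reference gene row gapdh; every edgeR and limma-voom fit called 0. Genes at an unadjusted p under 0.05 numbered 2393 without titled bold 1, 536 to 622 without any other library and 1160 with the replicate block, against 690. The labels do not state that same-numbered libraries are pairs, so the numbers were not taken as pairs. Deviations of same-numbered libraries correlated at 0.316, 0.136 and 0.0798, and those of differently numbered ones at -0.221 to 0.0843. Titled shy 3 correlated slightly better with titled bold 2 (0.0843) than with its own number (0.0798), and every other library best with its own number. Whether the libraries were paired was not tested. Of 42 named genes 12 changed sign in at least 1 alternative, none of them called. The planned ranking per kilobase of coding length was not run, as lengths were not used here. Depth does not limit cirbp itself; 3 libraries per group limit every comparison.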

Other observations

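Genes often used as references in quantitative PCR, a list added after the values were seen, gave 14 tested rows. Their CVs lay between 5.94% and 91.4% with a median of 9.02%, against 4.75% for cirbp, and 0 of them varied less than cirbp. As cirbp was chosen for its small spread in these libraries, this order is a description with no test. The rows also had lower means, 14.0 to 841 CPM, against 3062 CPM for cirbp. The elongation factor gene eef1a1 had the lowest CV, at 212 CPM, followed by the ribosomal protein gene rpl7 at 6.66% and the cyclophilin gene ppiaa at 6.88%. With library totals in place of TMM factors 6 of the 14 varied less than cirbp. The row named gapdh, a glycolytic enzyme gene, had only 14.0 CPM and the highest CV. It had 5.59 ± 1.89 CPM under the bold title and 22.4 ± 13.9 CPM under the shy title, and the groups overlapped. A second row, named gapdhs and not in the list, had 1654 CPM and a CV of 13.9%. The actin gene actb2, also not in the list, had 4033 CPM and a CV of 10.4%. In edgeR 0 of the 14 were called between the title groups.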
